A study of Mus musculus with 6 samples.

Results

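Antisense signals that were detected in every mammary tumor but in neither normal mammary gland of GRS/A mice came from 27 probes of 26 genes, among 1752 antisense probes on the array. A probe was taken when the scanner software called it well above background in all 4 tumors and when its deposited signal was the floor value of 5 in both normal glands. The probes were thus selected on the tumor and normal signals themselves, and their difference between the groups is given as a description without a test. Of the 1752 probes, 1749 could be tied to the table of deposited signals. The genes were Pim1, Hrk, Vim, Syk, Igf2, Nr2c2, Cdkn1b, Csf2rb2, Ghr, Gsta2, Plat, Pou2af1, Ret, Mmp9, Ikzf1, Met, Ryk, Stat6, Sp4, Vhl, Ptk6, Sdf4, Blk, Pou4f2, Zfp36 and Flt1. Pou4f2 was the 1 gene with 2 such probes.

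Natural antisense transcripts (NATs) are RNAs copied from the strand opposite to a gene, so that they can pair with the gene's own, sense transcript. Some are known to silence their sense partner through DNA methylation or histone modification, and others lie within the paired genes of imprinted loci. Many lack a poly(A) tail, and labeling with random primers reaches them while oligo-dT priming can miss them.

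The study asked whether probes placed on the antisense strand of well-characterized genes, many of them oncogenes and tumor suppressor genes, detect NATs in cancerous tissue. GRS/A is a mouse strain in which mouse mammary tumor virus (MMTV) induces mammary tumors, and both groups came from this strain. RNA of 4 tumors and 2 normal mammary glands was copied into Cy3-labeled first-strand cDNA with random primers, with 1 custom Agilent 60-mer array per sample. The ages of the mice, and whether each sample came from a separate mouse, are not given in the sources used here, so p-values measure only the spread between these samples, which may be technical. The extraction text of all 6 labels names brain as the tissue, whereas the titles and the paper name mammary tissue. On the sense strand, the keratin genes Krt18 and Krt14 of luminal and basal mammary epithelium were above the floor on every array. Krt18 ranged from 15531 to 40295 in tumors and was 2643 and 1591 in the normal glands. Tumors 3 and 4 shared a slide.

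An antisense probe carries the reverse complement of an mRNA stretch, which is the sequence of the antisense RNA itself with T for U. The probes of 7 genes are shown, as examples of the kinases, receptors, nuclear receptors and proteases in the set, since it is these 60 bases and not a whole transcript that gave the signal. They lie on chromosome 17 for Pim1, 6 for Nr2c2 and Ret, 15 for Csf2rb2 and Ghr, 8 for Plat and 2 for Mmp9. All are written from 5′ to 3′, as on the array.
Pim1: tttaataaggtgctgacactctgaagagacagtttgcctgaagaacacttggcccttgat
Nr2c2: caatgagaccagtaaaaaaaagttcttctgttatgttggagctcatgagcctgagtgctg
Csf2rb2: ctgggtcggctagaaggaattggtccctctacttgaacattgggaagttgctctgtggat
Ghr: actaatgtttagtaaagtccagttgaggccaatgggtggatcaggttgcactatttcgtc
Plat: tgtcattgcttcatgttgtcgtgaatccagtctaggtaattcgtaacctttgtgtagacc
Ret: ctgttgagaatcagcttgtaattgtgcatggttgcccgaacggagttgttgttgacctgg
Mmp9: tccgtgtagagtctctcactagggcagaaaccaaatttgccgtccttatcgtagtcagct

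The floor did not stand for the same signal in both groups, which bears on every value that follows. Over all 2153 sense and antisense probes tied to the table, the lowest signal listed above the floor was 18.6 in normal gland 1 and 24.3 in normal gland 2. In tumors 1 to 4 it was 5.03, 5.34, 5.81 and 5.36. The tumors listed 155, 238, 247 and 269 signals between the floor and 18, and the normal glands listed 0. In the tumors, the lowest signal called well above background was 17.4, 24.5, 19.0 and 18.6, close to where the listed signals of the normal glands began. Tumor spots without that call reached 23.0, 33.1, 21.7 and 20.3, so the signals of called and uncalled spots overlapped on each array. A value of 5 in a normal gland therefore gives no exact upper limit and cannot be read as the absence of RNA. Whether the arrays of the normal glands were processed in another way was not tested.

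The normal glands also had more antisense probes at the floor than any tumor. Of 1749 antisense probes, 496 (28.4%) in normal gland 1 and 615 (35.2%) in normal gland 2 were at the floor. The probes not well above background numbered 180 (10.3%), 572 (32.7%), 501 (28.6%) and 546 (31.2%) in tumors 1 to 4. Tumor 1 thus stood apart from the other 3 tumors, whose shares lay between those of the normal glands. Without tumor 1, the rule gave the same 27 probes. Without tumor 2 it gave 44 probes, without tumor 3 it gave 41 and without tumor 4 it gave 30. Without normal gland 1, 77 probes met it, and without normal gland 2, 33 met it.

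Few antisense probes behaved in this way. Of 1039 antisense probes well above background in all 4 tumors, 956 (92.0%) were above the floor in both normal glands, 56 (5.39%) in 1 of them and 27 (2.60%) in neither. The set is thus 1.54% of the antisense probes tied to the table. Of the 1039 probes, 551 had a tumor mean within the range of the 27, from 32.1 to 225. Among these 551, 471 (85.5%) were above the floor in both normal glands and 27 (4.90%) in neither. By the same rule, 3 of 404 sense probes (0.743%) were taken, those of Tsn, Prkca and Bst1. At the floor in both normal glands lay 27 sense probes (6.68%), beside 459 antisense probes (26.2%). The shares taken on each strand are therefore not directly comparable. The rule turned round, with both normal glands above the floor and no tumor well above background, took 0 antisense probes, and without tumor 1 it took 14.

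A normal gland at the floor has no measured signal, so no fold between the groups is given. Instead, the geometric mean of the 4 tumor signals was set against a reference level of 21.2, the geometric mean of the lowest listed signals of the normal glands. Since a spot at the floor may have lain above that level, the ratio is not a lower limit of the difference. It ranged from 1.39-fold for Flt1 to 10.1-fold for Pim1, with a median of 2.34-fold, and 20 of the 27 probes reached 2-fold. In all 27, every tumor lay above the lowest listed signal of normal gland 1. The call fixed this for tumors 2 to 4, whose lowest called signals lay above that level. In 20, every tumor also lay above the lowest listed signal of normal gland 2. The other 7, where at least 1 tumor was below it, were the probes of Csf2rb2, Pou2af1, Mmp9, Ikzf1, Sdf4, Zfp36 and Flt1. The number of arrays, 4 against 2, limits the precision of all these values, and in such bulk samples fewer cells of a type and less RNA per cell cannot be told apart.

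Protein kinases and receptors are described first. The antisense signal of Pim1, a serine/threonine kinase gene known as an integration site of retroviruses, was 188, 270, 135 and 309 in tumors 1 to 4. This was 10.1-fold the reference level, and Pim1 was the 1 gene with a signal of at least 100 in every tumor. The Syk probe, for a tyrosine kinase of immune receptor signaling, gave 164, 75.1, 36.4 and 282, 4.99-fold the reference level. Its tumors were uneven, with tumors 1 and 4 high and tumor 3 low. The antisense signal of Csf2rb2, a beta chain of the interleukin 3 receptor, was 74.4, 34.7, 191 and 19.2 (2.62-fold the reference level). Csf2rb2 has a near-identical neighbour, Csf2rb, so that its probe may not separate the pair.

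Among the growth factor receptors, the Ghr probe, for the growth hormone receptor, gave 111, 30.5, 107 and 36.2 (2.84-fold the reference level). Tumors 1 and 3 were high for Ghr and tumors 2 and 4 low. The Ret probe, for a receptor tyrosine kinase, gave 121, 26.4, 36.3 and 46.0 (2.26-fold the reference level), with tumor 1 far above the others. The probe of Ryk, a Wnt receptor, was the most even of these, at 63.4, 41.4, 50.5 and 52.5 (2.42-fold the reference level). The probes of Met, the receptor of hepatocyte growth factor, and of the cytoplasmic tyrosine kinases Blk and Ptk6 lay between 24.8 and 91.7 in all tumors. Flt1, a receptor of vascular endothelial growth factor, gave 20, 33.6, 21.2 and 53.6, 1.39-fold the reference level.

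Regulators of transcription and of mRNA formed the next group. Nr2c2, an orphan nuclear receptor, had an antisense signal of 102, 91.2, 75.4 and 170 in tumors 1 to 4, 4.93-fold the reference level. All 4 tumors lay above the lowest listed signal of both normal glands there. Pou2af1, a B cell coactivator of octamer-binding factors, gave 100, 34.7, 23.2 and 83.1 (2.40-fold the reference level), and Ikzf1, a lymphoid zinc finger factor, gave 58.2, 81.0, 21.2 and 50.8 (2.24-fold the reference level). Tumor 3 was the lowest for both of these lymphoid genes and fell below the lowest listed signal of normal gland 2. Stat6, the transcription factor of interleukin 4 signaling, and Sp4, a zinc finger factor, lay between 30.1 and 77.1. Zfp36, whose protein binds AU-rich mRNA and speeds its decay, gave 41.9, 38.9, 23.4 and 27.0, 1.5-fold the reference level.

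Pou4f2, a POU-domain transcription factor of retinal neurons, was represented by 2 of the 27 probes. These gave 57.8, 30.4, 33.9 and 31.1, and 48.99, 42.6, 26.2 and 33.3, or 1.74-fold and 1.73-fold the reference level. The pair belongs to 1 gene and so is not a set of independent findings. The other 5 Pou4f2 antisense probes were well above background in all tumors too, and 4 of them were above the floor in both normal glands. One of those shared 16 bases with a probe of the set and gave 758 and 1344 in the normal glands, where the probe of the set was at the floor.

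Genes of cell cycle control and cell death included Cdkn1b, which encodes the cyclin-dependent kinase inhibitor p27. Its antisense probe gave 65.1, 109, 69.8 and 78.1, 3.72-fold the reference level, and the 4 tumors differed by no more than 1.68-fold. The probe of Vhl, a tumor suppressor that targets hypoxia-inducible factors for degradation, was as even, at 56.6, 37.6, 53.0 and 39.7 (2.17-fold the reference level). Hrk, a pro-apoptotic BH3-only gene, gave 121, 328, 74.97 and 363, 8.53-fold the reference level. Tumors 2 and 4 were high for Hrk, and tumor 3 was the lowest.

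The Hrk signal was set against a second Hrk antisense probe that shared 35 of its 60 bases on the same strand. That probe gave 143, 468, 52.1 and 348 in tumors 1 to 4, with the same tumors high and low. Its normal glands were at 118 and 248, however, and within the range of the tumors. Over stretches that overlap by 35 bases, the antisense signal was therefore at the floor in both normal glands with 1 probe and well above it with the other. As a measure of repeatability, 21 pairs of antisense probes with the same 60 bases were on the array. In 40 of 42 comparisons within a normal gland, both probes of a pair fell on the same side of the floor. Most pairs had listed signals in the normal glands, however. The 2 exceptions, in pairs of Cd7 and Cdkn2c, were among the few pairs with no gland in which both probes were above the floor. The count therefore says little about repeatability near the floor. No probe of the set was printed on the array under a second name.

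Genes of secreted, matrix and structural proteins completed the set. Igf2, an imprinted growth factor gene expressed from the paternal allele, had an antisense signal of 81.0, 34.5, 259 and 65.9 (3.92-fold the reference level), with tumor 3 the highest. Of its 8 other antisense probes, 6 were above the floor in both normal glands and 2 were at the floor in both. Plat, the tissue plasminogen activator, gave 71.5, 96.1, 32.8 and 48.1 (2.71-fold the reference level). Mmp9, a gelatinase that degrades extracellular matrix, gave 44.1, 42.7, 107 and 20.4 (2.12-fold the reference level), and tumor 4 was the lowest. Gsta2, a glutathione transferase with near-identical relatives, gave 118, 35.3, 29.4 and 100 (2.79-fold the reference level). Sdf4, a calcium-binding protein of the Golgi, lay between 22.8 and 61.2.

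Vim, which encodes the intermediate filament vimentin of mesenchymal cells, had the widest spread of the 27, at 72.8, 196, 37.3 and 544, a ratio of 14.6 between tumors 4 and 3. Its tumor mean was 6.14-fold the reference level. The reverse complement of the Vim probe matched all 60 bases of the gene's start region at chr2:13574065-13574124 on the plus strand of GRCm38.p6 (RefSeq start window chr2:13574061-13574360). The Vim probe thus lay at the 5′ end of the gene. Of the 4 other Vim antisense probes, 3 were well above background in all tumors and above the floor in both normal glands, and 1 was at the floor in both.

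The signals varied among the tumors, and no tumor was the highest throughout. The ratio of the highest to the lowest tumor ranged from 1.5 for Vhl to 14.6 for Vim, with a median of 2.68, beside 3.13 for all 1039 antisense probes well above background in every tumor. Tumor 1 was the highest in 13 of the 27 (48.1%), tumor 4 in 7 (25.9%), tumor 3 in 4 (14.8%) and tumor 2 in 3 (11.1%). Among the 1039 probes these shares were 34.7%, 12.7%, 20.2% and 32.3%. Tumor 3 was the lowest in 13 of the 27 (48.1%), beside 40.0% of the 1039. These shares are counts without a test.

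In base composition and position the 27 probes were close to all antisense probes. Their GC content ranged from 38.3% to 61.7% with a median of 45.0%, which is also the median of all 1749 antisense probes. Probes of a gene are numbered from its 3′ end. The basis is that 17 of 19 antisense probes matching the start region of their own gene over at least 25 bases carried the highest number of their series. Numbers 0 to 4 held 7, 8, 5, 4 and 3 of the 27, or 25.9%, 29.6%, 18.5%, 14.8% and 11.1%. Over all antisense probes they held 25.1%, 24.0%, 20.01%, 16.5% and 13.7%. Apart from the Hrk and Pou4f2 pairs, no probe of the set shared 16 or more bases with another named probe, and the longest stretch shared with a probe of another gene was 13 bases.

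The values near the limits of the rule were as follows. Just inside lay Flt1, Zfp36 and the second Pou4f2 probe, given above. Just outside, with all 4 tumors well above background but normal gland 1 barely above the floor, lay probes of Zrsr1, Epha3 and Zfp36. Their signals in normal gland 1 were 18.6, 19.2 and 19.3, with normal gland 2 at the floor. Just outside on the tumor side, with both normal glands at the floor and 3 tumors well above background, lay probes of Klf1, Cxcr2 and Chrnd. Klf1 gave 50.1, 141, 17.5 and 435 in tumors 1 to 4, and its tumor 3 failed the call. Cxcr2 gave 83.5, 5, 324 and 26.9, with tumor 2 at the floor, and Chrnd gave 100, 71.0, 16.8 and 149.

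The sense strand, which the rule did not use, was compared with limma on log2 signals, with p-values adjusted over all 404 sense probes. For 23 of the 26 genes a sense probe was linked, and 3 of the 23 (13.0%) passed the adjusted threshold of 0.05, all of them higher in tumors. Over all sense probes 14.6% passed, 14.4% as higher in tumors and 0.248% as lower, so the share among these genes was near the background. At an unadjusted p of 0.05, 6 of the 23 were higher and 1 lower in tumors, beside 36.4% and 1.98% of all sense probes (38.4% in either direction). The median log2 difference of the 23 was 0.14, beside 0.91 for all sense probes. Every tumor was above both normal glands for 7 of the 23 (30.4%), beside 42.6% of all sense probes, and every tumor was below both for 1, Nr2c2, beside 3.47%. The probes of both strands had, in all, a median log2 difference of 0.50, tumor over normal, which the scaling alternatives brought to between -0.03 and 0.29.

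Zfp36, Cdkn1b and Ryk were the 3 genes whose sense probe passed the adjusted threshold. The sense probe of Zfp36 gave 6182, 4388, 4398 and 6002 in the tumors and 1078 and 413 in the normal glands. The log2 difference was 2.95 ± 0.52 (SE, n = 4 and 2; limma adjusted p = 0.0215). For Cdkn1b the tumors gave 3454, 2408, 1485 and 4536 and the normal glands 470 and 246. Its log2 difference was 3.01 ± 0.59 (SE; limma adjusted p = 0.0251). For Ryk the tumors gave 3177, 1471, 3412 and 2743 and the normal glands 703 and 458. Its log2 difference was 2.18 ± 0.52 (SE; limma adjusted p = 0.0378). The tumors did not overlap the normal glands in any of these 3 genes, and the two-sided exact permutation test over 15 splits gave p = 0.0667, the smallest it can give here. All 3 calls were lost without tumor 1, without tumor 4 or without normal gland 2, and Cdkn1b and Ryk were also lost without normal gland 1. Ryk was lost as well under 3 other scalings, with limma adjusted p from 0.0776 to 0.0947.

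For the other genes the sense values did not pass the adjusted threshold. The sense probe of Nr2c2 gave 3043, 3550, 2797 and 2616 in tumors against 6115 and 8435 in the normal glands, and the log2 difference was -1.27 ± 0.42 (SE; limma adjusted p = 0.0750). With the floor set at 20 for all probes, its limma adjusted p was 0.0466. Plat gave 1100, 740, 456 and 2036 against 286 and 228 (log2 difference 1.87 ± 0.64; limma adjusted p = 0.0799). A probe linked to Vhl by its place in the table gave 196, 48.7, 69.3 and 139 against 29.9 and the floor (limma adjusted p = 0.0533). It passed under the signal filter and with trend and robust estimates. Pim1 gave 2364, 1775, 3215 and 1171 against 1412 and 817, where tumor 4 lay below normal gland 1 (log2 difference 0.89 ± 0.55; limma adjusted p = 0.275).

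In several genes with an antisense signal in the set, the sense probe lay in the same range in tumors and normal glands. A sense probe linked to Vim by its place in the table alone gave 362 to 618 in tumors and 600 and 403 in normal glands (log2 difference -0.03 ± 0.45). That of Igf2 was 13346 to 24262 against 19372 and 16580 (log2 difference 0.14 ± 0.45), and that of Syk was 19.0 to 96.1 against 76.3 and 50.3 (log2 difference -0.11 ± 0.72). The sense probe of Hrk was well above background in 1 tumor, tumor 1, at 29.1, and both normal glands were at the floor. Whether the sense and the antisense differences of a gene differed was not tested.

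The other antisense probes of these genes were compared next. They went through the same rule and failed it, so they are not an independent measurement. Of 99 such probes, from 25 genes, 0 passed the limma adjusted threshold, beside 0.457% of all antisense probes, all of those higher in tumors. At an unadjusted p of 0.05, 11 were higher and 5 lower in tumors, beside 13% and 3.26% of all antisense probes. Their median log2 difference was 0.48, and that of all antisense probes was 0.44. Every tumor was above both normal glands for 19 of the 99 (19.2%), beside 21.6% of all antisense probes, and every tumor was below both for 7, beside 6.92%. In these counts the 99 probes were close to antisense probes at large. That background still held the probes that met the rule, so the 99 and the background were not chosen alike. The 75 of the 99 not at the floor in both normal glands had a median log2 difference of 0.24. Every tumor was above both normal glands for 11 of these 75 (14.7%) and below both for 7.

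Antisense signal in the normal glands was found elsewhere along nearly all of these genes. Of the 99 probes, 60 were above the floor in both normal glands, 15 in 1 and 24 (24.2%) in neither, beside 26.2% at the floor in both among all antisense probes. In 24 of the 26 genes, another antisense probe was well above background in all tumors and above the floor in both normal glands. Since 956 of all 1749 antisense probes met this condition, most genes with several probes would be likely to have one. The share over all genes was not computed, so the 24 are not a trait of these genes. Gsta2 had no other antisense probe. The other Pim1 probe gave 153, 141, 191 and 117 in tumors and 82.0 and 62.6 in normal glands (log2 difference 1.05 ± 0.40 SE; limma adjusted p = 0.266). In those 24 genes, the rule was thus met by 1 probe, or by 2 in Pou4f2, and not by every probe. Failing it did not always mean signal in the normal glands. Another Hrk probe gave 27.8, 9.29, 55.2 and 23.4 in tumors 1 to 4, with both normal glands at the floor. It was called well above background in 3 tumors.

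Within 1 gene, probes could point in opposite directions. A probe of Plat near the 3′ end gave 557, 408, 435 and 672 in tumors and 200 and 113 in normal glands, a log2 difference of 1.76 ± 0.45 (SE; limma adjusted p = 0.172). A Plat probe nearer the 5′ end gave 327, 3780, 174 and 269 in tumors and 7031 and 10540 in normal glands, a log2 difference of -4.13 ± 1.25 (SE; limma adjusted p = 0.198). Tumor 2 lay far above the other tumors there, and without it the log2 difference of that probe was -5.12 (limma adjusted p = 0.0333). In none of the other alternatives did the probe pass, and without tumor 1 its limma adjusted p was 0.390. For Blk and Flt1 too, 1 antisense probe was lower in every tumor than in both normal glands, with log2 differences of -2.77 ± 0.88 and -3.30 ± 1.19 (SE; limma adjusted p = 0.211 and 0.259). With that Plat probe they were among 7 of the 99 probes with this pattern, beside 6.92% of all antisense probes. The others were of Plat, Pou4f2, Ptk6 and Sdf4. The directions of different probes of a gene were not tested against each other.

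By role, the genes were counted in lists that hold only part of each class, so a count is not the tally of a class. All 26 made up 5.84% of the 445 genes with antisense probes. Secreted proteases, inhibitors and matrix genes held 2 of 13 genes, Mmp9 and Plat, and cytokine signal transducers held 2 of 13, Pim1 and Stat6. Intracellular kinases held 3 of 25, Pim1, Syk and Blk, and cell surface receptors 5 of 56, with Ghr, Ret and Met among them. Transcription factors and nuclear receptors held 1 of 41, Nr2c2, ligands 1 of 37, Igf2, and cell cycle and repair genes 1 of 33, Cdkn1b. The lists of apoptosis genes, immune cell surface genes and small GTPases held 0 of 17, 0 of 21 and 0 of 7. In all, 12 of the 26 genes were in no list. Among them were Hrk, the kinase Ptk6, the receptor chain Csf2rb2 and the transcription regulators Sp4, Ikzf1, Pou2af1 and Pou4f2, while Stat6 was counted with the signal transducers.

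The summed signals of leukocyte and luminal markers were higher in every tumor, and those of the other cell types overlapped between the groups. Of 10 leukocyte markers, 4 had a sense probe (Cd4, Cd86, Fcgr2b and Csf1r), and their summed signal was 11593 to 37554.5 in tumors and 11530 and 7008 in normal glands. Tumor 3, the lowest, lay next to normal gland 1. Cd4 made up most of each tumor's sum, at 7659 to 31636 in tumors and 7078 and 3901 in normal glands, while Fcgr2b and Cd86 overlapped between the groups. Of 18 luminal epithelial markers, 6 had a sense probe, with sums of 31603.5 to 135875 in tumors and 11052 and 10993 in normal glands. Within this list Esr1, the estrogen receptor, ran the other way in tumors 1 to 3, at 886, 2654 and 731 against 4339 and 5416 in the normal glands. Basal epithelium was measured by Krt14 alone, at 1752 to 5193 in tumors and 3692 and 2463 in normal glands. The 3 endothelial markers with a probe, of 6, summed to 1252 to 3672 and to 1821 and 1077. None of the 9 adipocyte markers had a sense probe, and of the 4 fibroblast markers 1 had one, Pdgfra, at 25.7 to 83.8 in tumors and at 86.4 and the floor in normal glands. Their part in the antisense signals of the leukocyte genes Blk, Syk, Ikzf1, Pou2af1 and Csf2rb2, or of any other gene here, was not tested. On the sense strand the log2 differences were -1.03 for Blk, -0.11 for Syk, -0.46 for Pou2af1 and -0.36 for Csf2rb2. That of Ikzf1 was 0.74, and none of these passed the adjusted threshold.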

How the data were processed

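The arrays were scanned, and signals extracted by the authors with Agilent Feature Extraction (version 9.1.3.1 in the file headers). The deposited intensity is the software's processed signal. The authors multiplied each array by 1 constant and gave the floor value of 5 to lower signals and to spots they judged absent. The deposited p-value of each tumor spot's signal against background was not used in any test. Scanner files of the 4 tumors gave probe names, sequences and detection calls, while the normal glands were taken from the value table alone. The names of 39878 other spots were masked. Entries of the value table, which carries no names, were matched to probes through all 4 tumor columns at once, with a tolerance of 0.02 plus rounding. Of 2156 entries, 2099 had 1 candidate, 54 were placed by their neighbours and 3 were left out. All 27 probes of the set had 1 candidate. No named probe was saturated.

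Sense probes were linked to the 26 genes by accession (16) or by their place in the table (7). RefSeq accessions were named with a gene table of assembly GRCm38.p6. The build of the design is not given in the sources used here.

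The tests were two-sided moderated fits of limma 3.58.1 (R 4.3.3) to log2 deposited signals without further scaling, over 4 tumors and 2 normal glands, with Benjamini-Hochberg adjustment over each strand. Python 3.11.15 was used for the rest. On simulated data of 404 sense probes with 200 changed by 3 on the log2 scale, limma recovered 96.5% with 2.81% false calls. With 200 of 1749 antisense probes changed it recovered 78% with 3.68% false calls. The simulated noise was Gaussian and had no floor, so these rates do not carry over to signals at the floor or to smaller differences.

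The probes and gene lists were chosen with earlier results of these data known. Genes named were the 15 with the highest mean tumor signal, genes with 2 probes in the set, genes with a sense or other antisense probe past the threshold, the values nearest the rule's limits and up to 3 genes per list. Others were added after their values were seen. Alternatives were other detection calls, limits and floors, scalings, a signal filter, trend and robust estimates, the methods' t-test, normexp correction, the replicate block and each array left out. One alternative, tumors held to the lowest listed signal of the normal glands, was chosen after seeing the data.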

Additional observations from a re-analysis of the deposited data

Results flagged for a closer look

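In all, 51 groups of 4 tumors were examined, 27 of antisense probes in the set, 23 of sense probes and 1 of detection. A tumor lay far from the others in 3, which is near the share of about 1 in 20 that chance gives. The rule kept low tumor values out of the 27, so that share is not exact for them. The antisense probe of Ptk6, a non-receptor tyrosine kinase of epithelia, gave 91.7 in tumor 1 and 26.1 to 34.0 in the others. The sense probe of Ptk6 gave 8871 in tumor 1 and 1487 to 1868 in the others. An antisense probe of Pou4f2 gave 57.8 in tumor 1 and 30.4 to 33.9 in the others. All of these concern tumor 1, which also had the fewest probes without a call above background.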

How the results depend on the processing

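The number of 27 probes became 170 with the weaker call of signals positive and significant, 1 (Pim1) with a signal of at least 100 in every tumor, 26 with at least 20, and 31 with normal glands at or below 20. It was 27 without spots carrying outlier flags and 20 with every tumor above the lowest listed signal of both normal glands. Leaving out 1 array gave 27 to 77. The median tumor signal of the 27 was 53.5, and 49.8 to 59.2 without 1 tumor. With normexp correction it was 254. That correction starts from the scanner's mean spot signals and adds an offset of 50, so 254 cannot be set beside 53.5 in size. The sense count of 3 became 0 under the methods' t-test after Benjamini-Hochberg adjustment on either scale, 5 unadjusted on log2 signals, and 0 to 4 without 1 array. For the other antisense probes the count of 0 became 9 (linear) and 11 (log2) under the methods' t-test unadjusted, and 0 to 1 without 1 array. With the replicate block the sense count was 0 and the other antisense count 0. Deviations of same-numbered tumors and normal glands from their group means correlated at -0.02 and 0.05. With 2 normal glands, whose deviations mirror each other, this cannot show whether the numbers pair the samples. Over 13 limma alternatives, Cdkn1b passed in 8, Ryk in 5 and Zfp36 in 9, with no change of direction. The slide as a block was not run, because the slide is known here for the tumors alone. Signals near background limit the set: the normal glands listed nothing between the floor and about 19 to 24, and a floor value there has no exact upper limit.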
